A study of Mus musculus with 18 samples.

Results

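The 47 genes described here encode the machinery that copies DNA, with the enzymes that supply its nucleotides and the E2F factors that switch many of these genes on. They were chosen by name, and each was found among the 41079 genes of both deposited count tables. The RNA came from mouse bone marrow cells selected for cKit, the receptor for stem cell factor, which marks blood stem and progenitor cells. Cells of genotype AE9a, named for a truncated and leukaemia-forming splice form of the AML1-ETO fusion, and cells of genotype WT (wild type) were each exposed to DMSO (the solvent control), C16 or RE. The 6 groups had 3 libraries each, 18 in all. The study set out to describe RNA changes in both genotypes after inhibition of WDR5 and MLL1, but which target C16 or RE acts on, the dose, the time and the age of the mice are not given in the sources used here. How AE9a was brought into the cells, and whether equally numbered libraries came from the same animal, is also not given, so p-values measure only the spread between these libraries.

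A cell prepares an origin of replication by loading the ring-shaped MCM helicase onto DNA, with the help of the origin recognition complex, CDC6 and CDT1. CDC45 and the GINS complex then turn the loaded ring into a moving helicase, primase and the DNA polymerases copy both strands, and the sliding clamp PCNA, placed by the RFC clamp loader, holds the polymerases to the template. E2F factors drive many of these genes at the entry to S phase, so RNA of the group is widely used as a sign of cycling cells; dividing blood progenitors are rich in it.

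Promoter sequences are shown for Mcm5, Mcm6 and Cdc6, which differed widely between treatments. That of E2f2 is shown as well, because in AE9a it did not follow the other genes between C16 and DMSO. RefSeq promoter windows of 300 bases (250 before and 50 after the annotated start, build GRCm38.p6) matched 39 of the 47 genes. An E2F-type motif was searched as TTTCCCGC, TTTGGCGC, TTTCGCGC or TTTGCCGC on both strands, where matches may overlap one another. It was present for 16 of 39 genes (41.0%), against 2.60% of all genes with a window. The same search for the CHR-type motif (TTTGAA or TTCGAA) gave 20.5% of the genes against 21.7% of all genes, and for the CCAAT box 61.5% against 41.1%. A match describes letters, not a bound site. Capitals mark the E2F-type matches, and each sequence runs 5′ to 3′ on the gene's strand. Mcm5 lies at chr8:75109259-75109558 on the plus strand with 2 overlapping matches, and Mcm6 at chr1:128359656-128359955 on the minus strand with 3 matches, of which 2 overlap. Cdc6 lies at chr11:98907901-98908200 and E2f2 at chr4:136172024-136172323, both on the plus strand with 1 match each. A second E2f2 window, at chr4:136180532-136180831, holds 0 matches and is not shown. Only windows with an E2F-type match are shown. Dut, Cdc45 and Rrm2 differed more between C16 and RE in AE9a than Cdc6 did (log2 1.54, 1.45 and 1.42, against 1.32). Their windows hold 0 E2F-type matches.
Mcm5: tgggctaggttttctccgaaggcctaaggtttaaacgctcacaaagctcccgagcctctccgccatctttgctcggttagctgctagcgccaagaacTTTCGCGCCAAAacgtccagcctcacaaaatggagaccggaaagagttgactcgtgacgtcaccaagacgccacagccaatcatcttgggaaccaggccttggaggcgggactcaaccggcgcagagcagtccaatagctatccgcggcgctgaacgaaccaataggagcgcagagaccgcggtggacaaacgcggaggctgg
Mcm6: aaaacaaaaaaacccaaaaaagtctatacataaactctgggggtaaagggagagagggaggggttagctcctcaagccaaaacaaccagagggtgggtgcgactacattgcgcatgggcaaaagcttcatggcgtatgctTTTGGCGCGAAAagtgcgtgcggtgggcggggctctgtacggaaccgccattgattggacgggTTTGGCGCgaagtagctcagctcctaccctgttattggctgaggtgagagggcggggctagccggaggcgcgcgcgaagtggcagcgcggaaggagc
Cdc6: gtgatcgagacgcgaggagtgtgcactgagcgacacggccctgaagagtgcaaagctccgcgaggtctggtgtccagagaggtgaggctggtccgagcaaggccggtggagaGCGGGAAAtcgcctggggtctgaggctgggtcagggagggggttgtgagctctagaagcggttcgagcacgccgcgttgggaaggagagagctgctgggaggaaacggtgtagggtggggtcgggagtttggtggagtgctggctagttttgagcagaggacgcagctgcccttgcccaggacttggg
E2f2: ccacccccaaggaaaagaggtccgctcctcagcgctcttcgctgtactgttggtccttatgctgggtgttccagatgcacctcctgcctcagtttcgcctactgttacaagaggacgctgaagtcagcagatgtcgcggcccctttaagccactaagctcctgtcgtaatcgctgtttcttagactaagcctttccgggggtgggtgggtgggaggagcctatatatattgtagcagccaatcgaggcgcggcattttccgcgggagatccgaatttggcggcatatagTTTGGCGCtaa

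Values below are levels in CPM (fragments counted for a gene, scaled to library size with TMM factors over the 18 libraries), in the order of replicates 1, 2 and 3. Library totals ran from 16053727 to 27207748 fragments, and the 47 genes together took 0.323% to 0.756% of them. WT replicate 2 lay apart under every treatment: its level was above both other WT libraries for 46 of 47 genes under DMSO, 46 under C16 and 41 under RE. Its marker sums also differed, with 10 megakaryocyte genes at 314 to 557 CPM against 2682 to 11282 in replicates 1 and 3, and 5 neutrophil genes at 1408 to 8469 against 734 to 1148. WT results are therefore given with and without that replicate. That choice used the values of the replication genes themselves, and leaving the replicate out lowers the spread. Calls without it are thus descriptive and carry no independent support. All 7 progenitor markers were detected in every library. Runx1t1, the mouse gene of the ETO part of AE9a, measured 34.0, 47.9 and 38.4 CPM in AE9a under DMSO, 2.38, 4.11 and 0.21 under C16 and 36.2, 45.3 and 45.6 under RE, and at most 0.38 in WT. Replicate 3 labelled AE9a C16 thus held as little as WT libraries, so groups are called by their labels throughout; without that replicate, 45 of the 47 genes were still higher with C16 than with DMSO. Nanog was at 0 in all 18 libraries, where 3 fragments would be 0.113 to 0.188 CPM.

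Nearly all of the replication genes were higher with C16 and lower with RE than with DMSO in AE9a cells. Summed over the 47 genes, the AE9a level was 4995, 4541 and 4816 CPM under DMSO, 7572, 7524 and 7624 under C16 and 3759, 3432 and 3506 under RE. The libraries of the 3 treatments did not overlap. In WT the sums were 4084, 5734 and 4159 CPM under DMSO, 4450, 7056 and 4312 under C16 and 3675, 4724 and 3880 under RE. There the second library was the highest of each treatment, and the ranges overlapped.

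**Figure D1:**
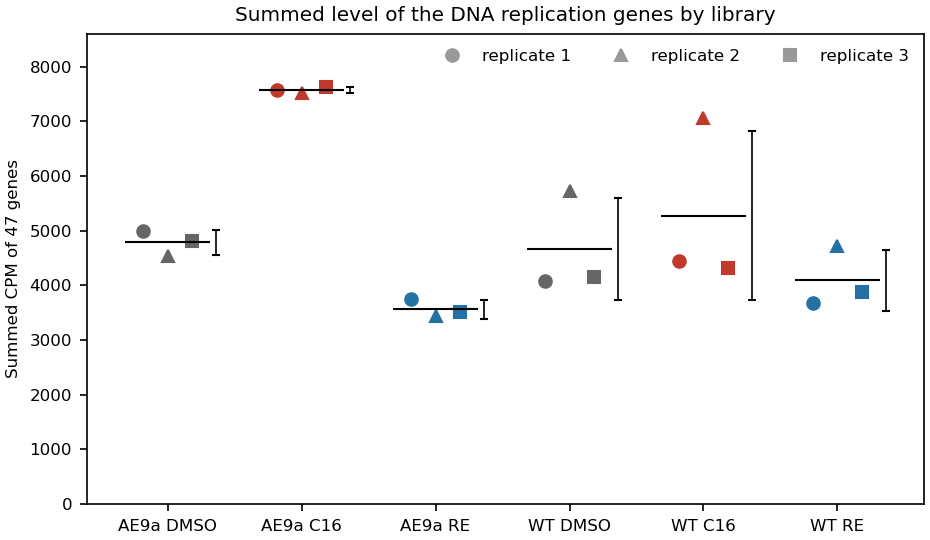
Summed level of the 47 replication genes (CPM, axis from 0) in each of the 18 libraries by genotype and treatment; points are libraries, the line is the mean and the bar the SD of 3 libraries. AE9a means were 4784 under DMSO, 7573 under C16 and 3566 under RE, while in WT replicate 2 sits above the other libraries of each treatment.

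Of the 47 genes, 45 were higher with C16 than with DMSO in AE9a, Rfc2 was lower and E2f2 did not pass (edgeR quasi-likelihood test, Benjamini-Hochberg adjusted p under 0.05). Over all 14704 genes tested, 33.1% were higher and 33.2% lower. The median log2 fold change was 0.69 for the replication genes and 0.00 for all genes. With RE, 45 genes were lower than with DMSO, Rfc2 was higher and Gins4 did not pass, against 16.8% lower and 12.2% higher over all genes. Here the medians were -0.49 and -0.01. The C16 and RE comparisons share the DMSO libraries, so their values are given side by side and are not independent. Compared directly, C16 exceeded RE for 46 genes and was below it for Rfc2, against 37.5% higher and 37.2% lower over all genes, with a median of 1.21. Among genes whose libraries did not overlap between groups, 45 were higher with C16 (34.5% of all genes) and 46 lower with RE (22.3%). In a fit of all 18 libraries the spread estimate is shared with WT. Then 42 genes were higher with C16 and 5 were lower with RE: Mcm6, Pola1, Prim1, Pold1 and Pole. Calls over all genes moved with the settings as well. Across the alternatives listed below they numbered 7234 to 9933 with C16 and 500 to 4584 with RE, in either direction. The share over all genes in the fit of 18 alone is not given here.

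Other RNAs moved with the same groups. Kit measured 873 to 1234 CPM in AE9a under DMSO, 217 to 315 under C16 and 1394 to 1647 under RE. All 5 mast cell markers were detected in every AE9a library, and their sum was 5410 to 7065 CPM under DMSO, 163 to 1159 under C16 and 9508 to 10642 under RE. The 8 erythroid markers summed to 275 to 337, 1.34 to 18.7 and 137 to 183 CPM, with Ermap and Rhag each at 0 in 1 C16 library. The 10 megakaryocyte markers summed to 295 to 416 CPM under DMSO, 60.1 to 155 under C16 and 475 to 599 under RE, and the 5 neutrophil markers to 1262 to 1431, 351 to 431 and 1409 to 2063. The 7 progenitor markers, Kit among them, summed to 2716 to 3332 CPM under DMSO, 1586 to 1740 under C16 and 3363 to 3778 under RE. Ptprc, also on that list, went against the sum with C16. It was higher than with DMSO (0.47 ± 0.08, adjusted p 7.5e-04 by edgeR), and was not called with RE. The progenitor, mast cell, erythroid, megakaryocyte and neutrophil sums were thus lowest under C16, where the replication genes were highest. The 5 macrophage markers went otherwise, with sums of 233 to 275 CPM under DMSO, 252 to 291 under C16 and 170 to 224 under RE. Their DMSO and C16 ranges overlapped. The T cell sum was at most 2.35 CPM in any library. In bulk RNA, fewer cells of a type and less RNA per cell cannot be told apart, and the part of these markers in the results was not tested.

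**Figure D2:**
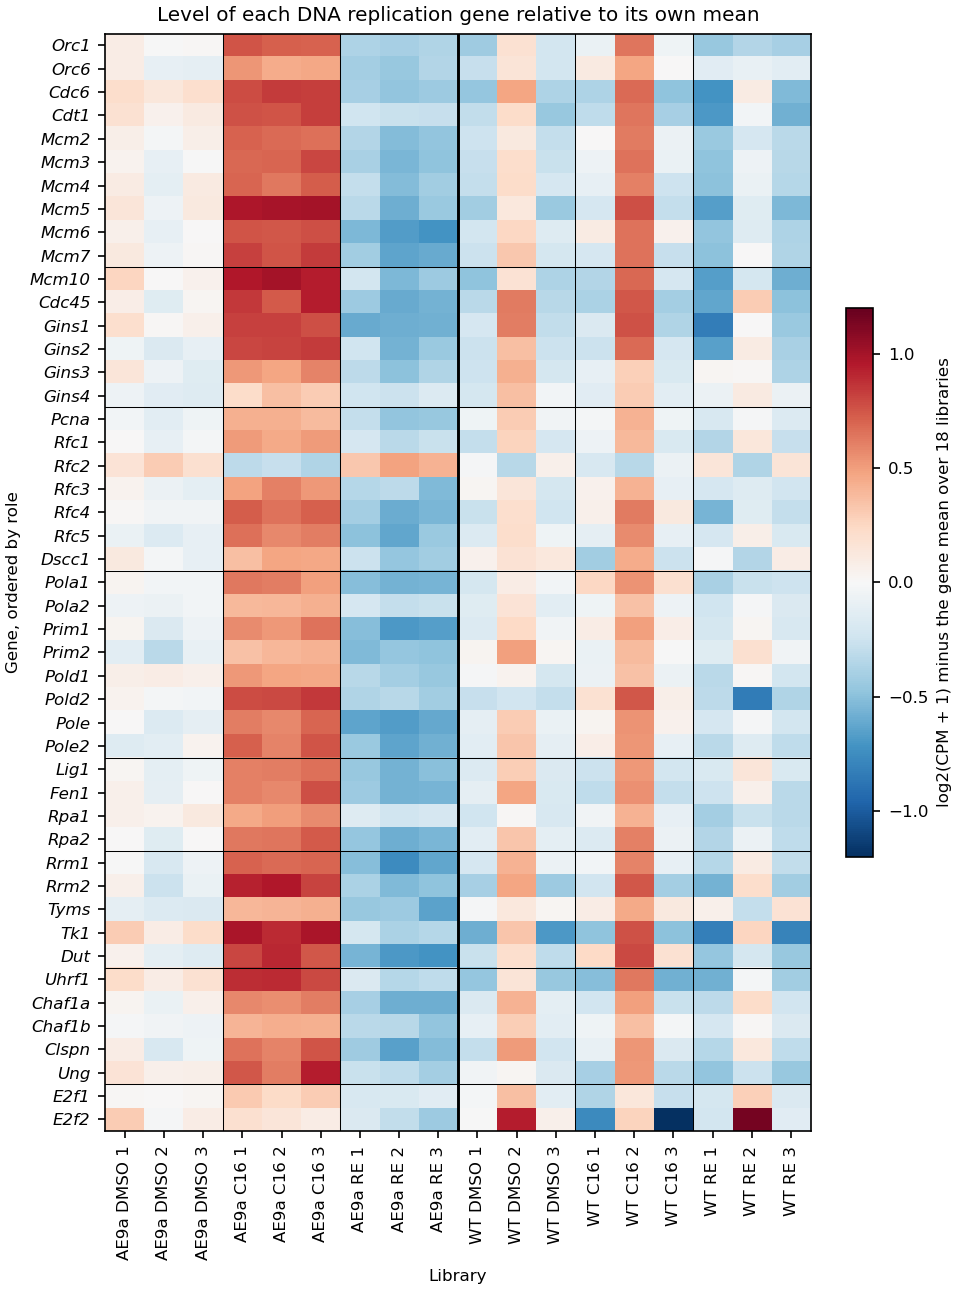
Level of each of the 47 genes (rows, by role) in each of the 18 libraries (columns, by group), as log2(CPM + 1) minus the mean of that gene over all libraries; the colour scale is in log2 units. AE9a C16 and WT replicate 2 under C16 are high for most rows, AE9a RE is low, and Rfc2 runs the opposite way.

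All 10 origin licensing genes were higher with C16 (median log2 fold change 0.72) and lower with RE (median -0.51) in AE9a. Mcm5 (chr8:75836096-75855067, plus strand; GRCm39, as in the count tables for every gene position given with a value), a subunit of the helicase ring, measured 241, 209.6 and 237 CPM under DMSO, 429, 434 and 438 under C16 and 175, 146 and 161 under RE. Its change was 0.94 ± 0.08 (log2, SE; adjusted p 7.0e-06 by edgeR) with C16 and -0.55 ± 0.08 (adjusted p 0.0016) with RE. The C16 libraries were the highest and the RE libraries the lowest, with no overlap, and the C16 libraries lay within 10 CPM of each other. Mcm6 (chr1:128259312-128287442, minus strand), another ring subunit and the gene with the highest mean CPM of the 47 in AE9a under DMSO, went from 331, 295 and 318 CPM under DMSO to 536, 529 and 539.9 under C16 and 217, 199 and 192 under RE. That was a change of 0.79 ± 0.06 with C16 and of -0.67 ± 0.06 with RE. The ring subunit Mcm7 (chr5:138162845-138170675, minus strand) measured 221, 195 and 207, then 361, 345 and 366 and 152, 131 and 134 CPM, changing by 0.80 ± 0.07 and -0.61 ± 0.07. The other MCM subunits moved alike: with C16 and RE, Mcm2 changed by 0.66 and -0.53, Mcm3 by 0.77 and -0.49, and Mcm4 by 0.68 and -0.48.

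The loaders of that ring followed it. Cdc6 (chr11:98798627-98814768, plus strand), the ATPase that recruits MCM to origins, measured 64.3, 61.1 and 64.2 CPM under DMSO, 96.3, 99.98 and 99.4 under C16 and 42.03, 39.9 and 40.96 under RE in AE9a. Its log2 changes were of equal size in the 2 directions, 0.66 ± 0.04 (adjusted p 2.5e-06, edgeR) and -0.66 ± 0.04 (adjusted p 1.7e-04), and the 3 treatments were far apart against a spread of a few CPM. Cdt1 (chr8:123294754-123299869, plus strand), which brings MCM to CDC6 and is destroyed in S phase, measured 69.7, 63.7 and 65.9 CPM under DMSO, 104, 104 and 109 under C16 and 51.8, 50.7 and 50.3 under RE, or 0.69 ± 0.05 and -0.42 ± 0.05 against DMSO. Of the origin recognition complex, Orc1 changed by 0.74 ± 0.06 and -0.47 ± 0.06, and Orc6 by 0.55 ± 0.06 and -0.41 ± 0.07.

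All 6 genes of helicase activation were higher with C16 (median 0.82) and 5 were lower with RE (median -0.49). Cdc45 (chr16:18599202-18632371, minus strand), which joins the ring as part of the active helicase, measured 55.9, 47.9 and 53.8 CPM under DMSO, 96.2, 88.8 and 103 under C16 and 39.04, 34.6 and 35.5 under RE, a change of 0.89 ± 0.08 and -0.56 ± 0.08. Mcm10, needed to start the assembled helicase, changed by 0.89 ± 0.09 and -0.55 ± 0.09. The GINS subunits, which act as 1 complex of 4 proteins, had fold changes of unlike size. Gins2 (chr8:121308005-121315814, minus strand) measured 22.2, 20.4 and 21.5 CPM under DMSO, 41.1, 41.2 and 41.9 under C16 and 19.4, 15.2 and 16.7 under RE. It thus nearly doubled with C16 (0.98 ± 0.08; adjusted p 8.7e-06, edgeR), while the fall with RE was smaller (-0.36 ± 0.09; adjusted p 0.015) and did not pass without AE9a DMSO replicate 1 (-0.32). Exons of Gins2 share 11.4% of their bases with Gse1 on the opposite strand, and counting ignored strand.

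Gins1 (chr2:150751482-150773200, plus strand) had the largest fall of the 47 genes with RE. It measured 22.01, 19.2 and 19.9 CPM under DMSO, 34.5, 34.5 and 33.3 under C16 and 12.2, 12.3 and 12.5 under RE, or 0.76 ± 0.07 with C16 and -0.76 ± 0.07 with RE (adjusted p 4.8e-04, edgeR). Gins4 (chr8:23716626-23727684, minus strand) was the gene that did not pass with RE: 31.8, 30.1 and 29.6 CPM under DMSO, 38.9, 42.8 and 41.1 under C16 and 27.9, 27.6 and 29.5 under RE. Its RE libraries all lay below its DMSO libraries, but by little (-0.14 ± 0.06; adjusted p 0.11), and its rise with C16 was the smallest of the complex (0.44 ± 0.06). Gins3 lay between, at 0.59 ± 0.09 and -0.44 ± 0.10.

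Of the 7 genes of the clamp and its loader, 6 were higher with C16 (median 0.55) and lower with RE (median -0.39) in AE9a. Pcna (chr2:132091206-132095100, minus strand), the sliding clamp, measured 302, 282 and 298 CPM under DMSO, 414, 414 and 401 under C16 and 252, 221 and 225 under RE, with changes of 0.50 ± 0.05 and -0.37 ± 0.05. The clamp loader is built of RFC1 to RFC5, and Rfc4 (chr16:22932698-22946480, minus strand) showed its widest span, 25.8, 24.8 and 24.7 CPM under DMSO, 42.7, 40.8 and 42.6 under C16 and 19.03, 16.6 and 17.1 under RE (0.76 ± 0.06 and -0.55 ± 0.06). Rfc4 shares 13.2% of its exon bases with Eif4a2. Rfc1, the large subunit, changed by 0.55 ± 0.05 and -0.26 ± 0.05, Rfc3 by 0.62 ± 0.07 and -0.39 ± 0.07, and Rfc5 by 0.76 ± 0.06 and -0.44 ± 0.06. Dscc1, a subunit of an alternative loader used in sister chromatid cohesion and the gene with the lowest mean CPM in AE9a under DMSO, measured 8.61, 7.71 and 7.27 CPM under DMSO, 10.4, 11.3 and 11.2 under C16 and 6.44, 5.43 and 5.66 under RE (0.50 ± 0.10 and -0.46 ± 0.11).

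Rfc2 (chr5:134611544-134627182, plus strand), a small subunit of the same loader, ran the other way. In AE9a it measured 169, 187 and 172 CPM under DMSO, 121, 124 and 117 under C16 and 188, 211 and 201 under RE. The C16 libraries were the lowest without overlap, -0.52 ± 0.05 against DMSO (adjusted p 1.9e-05, edgeR). The rise with RE was small (0.15 ± 0.05; adjusted p 0.049), its RE libraries all but touched the DMSO range, and the call was lost without AE9a DMSO replicate 1 (adjusted p 0.15), DMSO replicate 3 (0.13), RE replicate 2 (0.17) or RE replicate 3 (0.14). Per kilobase of exon, Rfc2 was also the most abundant loader subunit in AE9a under DMSO, with a mean FPKM of 116 against 31.4 for Rfc5, 26.5 for Rfc1, 20.7 for Rfc4 and 15.2 for Rfc3. Over the 18 libraries the log2 level of Rfc2 correlated with those of Rfc1, Rfc3, Rfc4 and Rfc5 at r = -0.79 to -0.87, while those 4 correlated with each other at 0.89 to 0.95. These libraries share groups and treatments, so the correlations only describe them. No base of the Rfc2 exons is shared with another gene.

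**Figure D3:**
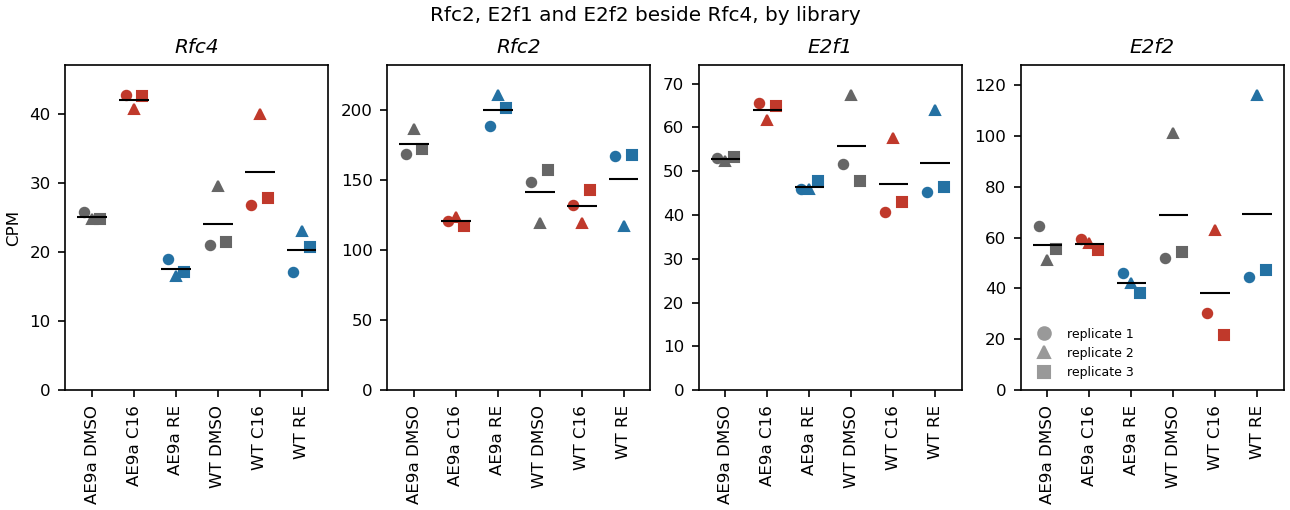
Level (CPM) in each of the 18 libraries of Rfc4, which moved with most replication genes, and of Rfc2, E2f1 and E2f2, which did not or did so less; each point is 1 library, grouped by genotype and treatment. In AE9a, Rfc2 is lowest under C16 while Rfc4 is highest there, and E2f2 overlaps between DMSO and C16.

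All 8 polymerase and primase genes were higher with C16 (median 0.65) and lower with RE (median -0.52). Pola1 (chrX:92348372-92675993, minus strand), the catalytic subunit of the polymerase that starts each new strand, measured 99.2, 94.9 and 94.6 CPM under DMSO, 151, 149 and 137 under C16 and 67.97, 65.3 and 65.6 under RE, changing by 0.62 ± 0.05 and -0.57 ± 0.05. Its partner subunit Pola2 fell by only 0.23 ± 0.04 with RE, the smallest fall called after that of E2f1. The primase genes Prim1 and Prim2, which make the RNA primers, changed by 0.68 ± 0.07 and 0.60 ± 0.07 with C16 and by -0.60 ± 0.07 and -0.36 ± 0.07 with RE. Of polymerase delta, which extends the lagging strand, Pold2 changed by 0.85 ± 0.04 and -0.41 ± 0.04, and Pold1 by 0.44 ± 0.04, among the smallest rises, and -0.51 ± 0.04. Of the leading-strand polymerase epsilon, Pole changed by 0.75 ± 0.06 and -0.59 ± 0.06, and Pole2 by 0.81 ± 0.08 and -0.53 ± 0.08.

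The 4 genes of strand joining and single-strand binding were higher with C16 (median 0.69) and lower with RE (median -0.51). Lig1 (chr7:13011101-13045351, plus strand), the ligase that seals Okazaki fragments, measured 110.5, 99.8 and 104 CPM under DMSO, 166, 167 and 172 under C16 and 79.1, 72.9 and 76.4 under RE, or 0.70 ± 0.05 and -0.50 ± 0.05 against DMSO. Fen1, the nuclease that trims those fragments, changed by 0.69 ± 0.07 and -0.55 ± 0.07. For the single-strand binding proteins the changes were 0.46 ± 0.04 and -0.30 ± 0.04 (Rpa1) and 0.74 ± 0.06 and -0.53 ± 0.06 (Rpa2).

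Nucleotide supply held the largest rise. Rrm2 (chr12:24758253-24764145, plus strand), the regulated subunit of ribonucleotide reductase, measured 255, 205 and 231 CPM under DMSO, 466, 477 and 431 under C16 and 188, 169 and 175 under RE in AE9a. It was 2.01 times as high with C16 (1.01 ± 0.08; adjusted p 7.9e-06, edgeR) and changed by -0.41 ± 0.08 with RE (adjusted p 0.0075). The DMSO libraries of Rrm2 spread more than those of most genes here, yet neither treatment reached into them. Its partner Rrm1 changed by 0.80 ± 0.07 and -0.57 ± 0.07. Dut (chr2:125089168-125100969, plus strand), which keeps uracil out of DNA, measured 119.9, 107 and 104 CPM under DMSO, 202, 218 and 194 under C16 and 78.2, 71.4 and 69.99 under RE. It had the widest gap between C16 and RE of the 47 genes, 1.54 ± 0.07, made of 0.91 ± 0.07 and -0.62 ± 0.07 against DMSO. Tyms (chr5:30243544-30279261, minus strand), the thymidylate synthase, measured 70.1, 67.2 and 66.8 CPM under DMSO, 100.1, 101 and 102 under C16 and 54.7, 55.7 and 48.1 under RE (0.59 ± 0.05 and -0.40 ± 0.05). Tk1, the thymidine salvage kinase, changed by 0.78 ± 0.07 and -0.56 ± 0.07; its exons share 20.7% of their bases with Afmid. All 5 genes of this group were higher with C16 and lower with RE, with medians of 0.80 and -0.56.

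The 5 genes that follow the fork on chromatin, watch it or remove uracil were likewise all higher with C16 (median 0.72) and lower with RE (median -0.49). Uhrf1 (chr17:56610405-56630486, plus strand), which recruits the maintenance DNA methyltransferase to new DNA, measured 222, 202 and 215 CPM under DMSO, 352, 353 and 329.9 under C16 and 168, 149 and 153 under RE, a change of 0.72 ± 0.06 and -0.48 ± 0.06. Clspn (chr4:126450738-126488326, plus strand), a checkpoint mediator at the fork, measured 75.2, 61.7 and 68.01, then 111, 107 and 119.9 and 52.4, 44.5 and 48.8 CPM, a change of 0.75 ± 0.09 and -0.53 ± 0.09. Chaf1a and Chaf1b, which load histones behind the fork, changed by 0.61 ± 0.06 and 0.49 ± 0.04 with C16 and by -0.56 ± 0.06 and -0.38 ± 0.05 with RE. Chaf1a shares 18.7% of its exon bases with Ubxn6. Ung, the uracil glycosylase, changed by 0.72 ± 0.09 and -0.49 ± 0.09.

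The 2 E2F activators had the group medians nearest 0 in AE9a, 0.16 with C16 and -0.34 with RE. E2f1 (chr2:154401320-154411812, minus strand) measured 52.9, 52.4 and 53.3 CPM under DMSO, 65.5, 61.8 and 64.9 under C16 and 45.8, 45.95 and 47.7 under RE in AE9a. Although the treatments did not overlap, its rise with C16 (0.30 ± 0.04; adjusted p 1.9e-04, edgeR) was the smallest called and its fall with RE (-0.22 ± 0.04; adjusted p 0.0058) the smallest fall called. E2f2 (chr4:135899585-135923368, plus strand) measured 64.4, 51.2 and 55.3 CPM under DMSO, 59.6, 57.7 and 55.1 under C16 and 46.1, 42.1 and 38.1 under RE. Its C16 and DMSO libraries overlapped (0.03 ± 0.09; adjusted p 0.78), and the sign of that difference turned when AE9a C16 replicate 1 or DMSO replicate 2 was left out. With RE it was lower than under DMSO in every library (-0.47 ± 0.09; adjusted p 0.0068). Between C16 and RE both differed by 0.50 and 0.51 (E2f2 and E2f1), the smallest differences of the 47 genes, followed by Gins4 at 0.58, whereas Gins1, Mcm5, Mcm6 and Cdc45 differed by 1.52, 1.49, 1.45 and 1.45.

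**Figure D4:**
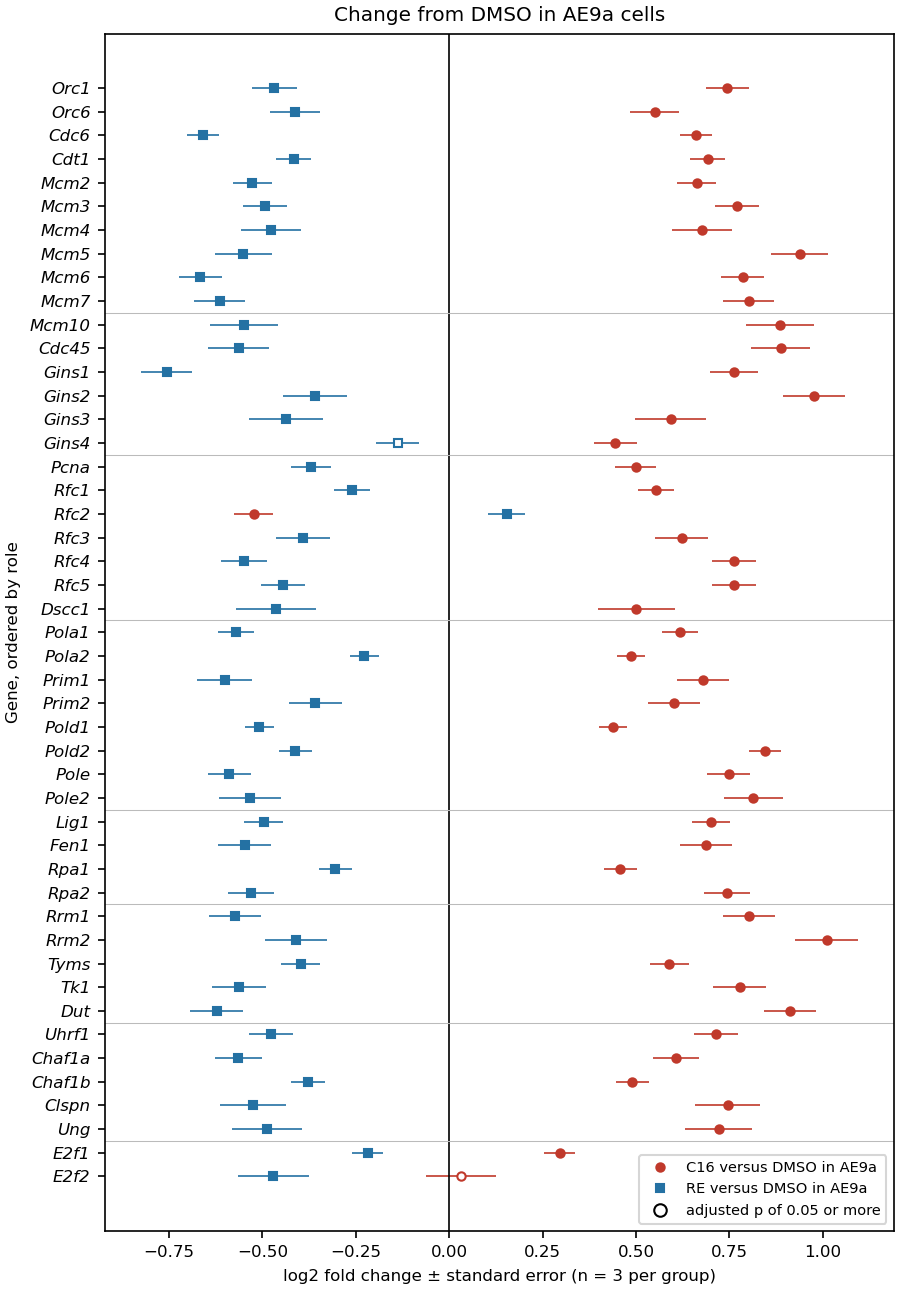
Log2 fold change against DMSO in AE9a of each of the 47 genes with C16 and with RE; bars are SE, and open markers did not pass an adjusted p of 0.05 (edgeR). C16 values run from -0.52 (Rfc2) to 1.01 (Rrm2) and RE values from -0.76 (Gins1) to 0.15 (Rfc2).

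In WT cells no replication gene passed between C16 and DMSO (0 of 47 by edgeR, against 3.1% of all 15046 genes in either direction). An unadjusted p under 0.05 was found for 3 of 47, against 3430 of the 15046 genes, and DESeq2 called 1 gene, Pold2. Changes were positive for 39 genes and negative for 8, with a median of 0.17. Mcm5 measured 164, 238 and 161 CPM under DMSO and 190.3, 375 and 179 under C16, so the second library of each treatment was far above the others (0.43 ± 0.32). Cdc6 measured 40.1, 77.8 and 42.7 and 42.9, 89.8 and 39.4, and Rrm2 186, 340.2 and 181 and 208, 410.3 and 185 CPM under DMSO and C16. In both genes replicates 1 and 3 stayed near their DMSO range under C16. Cdc45 (42.3, 82.4 and 41.8, then 40.5, 89.5 and 39.8 CPM) and Clspn (57.9, 101 and 60.2, then 66.4, 102 and 62.5) showed the same shape. So did Lig1 (96.6, 133 and 96.2, then 90.4, 156 and 92.8), Cdt1 (49.6, 71.3 and 44.5, then 49.4, 95.9 and 46.2), Gins2 (19.2, 29.9 and 19.1, then 19.1, 37.6 and 19.96) and Uhrf1 (137, 212 and 138, then 133, 294 and 127). For Pcna (296, 379.8 and 299, then 302, 411 and 298) and Tyms (75.02, 82.9 and 76.9, then 80.4, 104 and 82.3) the second library was less far from the others.

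Pold2, Dut and Pola1 were higher with C16 in each numbered WT library. Pold2 measured 33.5, 34.8 and 33.3 CPM under DMSO and 46.6, 69.1 and 42.99 under C16 (0.67 ± 0.21), Dut 96.01, 133 and 93.3 and 136, 201 and 132 (0.56 ± 0.21), and Pola1 83.96, 103 and 94.95 and 115, 142 and 111 (0.41 ± 0.13). E2f2 went the other way in all 3: 51.9, 101 and 54.2 CPM under DMSO and 30.2, 62.9 and 21.8 under C16 (-0.82 ± 0.53). E2f1 was also below DMSO in each, at 51.6, 67.4 and 47.9 and then 40.7, 57.6 and 42.99 CPM. Same-numbered WT libraries deviated together, but replicates 1 and 3 of different treatments did so as well (correlations of 0.50 to 0.59). The pattern rests largely on replicate 2, and the labels give no pairing. A fit with the replicate number as a block is given beside the WT results. With that block, Mcm6 (0.33), Pola1 (0.40), Rfc4 (0.41) and Dut (0.55) were higher with C16, 4 of 47 against 10.4% of all genes, and E2f2 was lower (-0.90 ± 0.14; adjusted p 0.0066, edgeR; 13.8% of all genes).

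Without WT replicate 2 the spread fell and 9 genes were higher with C16, against 20.8% of all genes. These were Dut (0.50), Pold2 (0.42), Rfc4 (0.36), Pola1 (0.34), Orc6 (0.31), Mcm6 (0.26), Mcm2 (0.23), Mcm3 (0.20) and Mcm5 (0.19). Lower were E2f2 (-1.03 ± 0.13), Dscc1 (-0.49 ± 0.14), E2f1 (-0.25 ± 0.07) and Fen1 (-0.16 ± 0.06), 4 genes against 20.9% of all. The median was 0.07. The share of replication genes called higher was close to that of all genes, and the share called lower was smaller.

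Between RE and DMSO in WT, 0 of 47 genes passed by edgeR (0.0266% of all genes in either direction), and DESeq2 called 0. An unadjusted p under 0.05 was found for 0 of 47, against 665 of all 15046 genes. The change was negative for 45 of 47 genes, with a median of -0.19. Mcm5 measured 138, 198 and 150.3 CPM under RE, Cdc6 33.4, 59.6 and 38.1, Cdc45 34.2, 65.9 and 37.4 and Rrm2 165, 283 and 183, in each gene with the second library highest. Other members under RE were Cdt1 at 37.5, 59.9 and 40.7, Gins2 at 14.4, 24.7 and 17.3, Pcna at 269, 304 and 274 and Lig1 at 95.7, 120.4 and 95.3 CPM. For Tyms the second library was instead the lowest (78.8, 61.9 and 85.2 CPM). Uhrf1 measured 127, 187 and 142, Clspn 55.5, 77.3 and 57.1, E2f1 45.2, 63.99 and 46.3 and E2f2 44.5, 116 and 47.2 CPM, all highest in the second library. The block called 0 of the 47 genes, with 10 at an unadjusted p under 0.05, against 1879 of all 15046 genes. Without replicate 2 only Mcm6 was lower (-0.24 ± 0.05, adjusted p 0.033 by edgeR), against 3.78% of all genes.

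C16 exceeded RE in WT for Pold2 (0.88 ± 0.21; adjusted p 0.038), Dut (0.82 ± 0.21; 0.046) and Pola1 (0.65 ± 0.13; 0.022), 3 of 47 genes against 5.4% of all (edgeR). Leaving out any 1 of the WT C16 or RE libraries lost the call of Dut (adjusted p 0.065 to 0.14). Pola1 kept its call only without C16 replicate 2 or 3, and Pold2 only without C16 replicate 2. Under RE, Pold2 measured 32.7, 22.4 and 31.7 CPM, Dut measured 83.4, 99.6 and 84.1 CPM and Pola1 measured 73.8, 80.6 and 81.5 CPM. The median was 0.36. With the block 29 genes were higher, among them Pold2 (0.86), Dut (0.79), Pola1 (0.64), Rfc4 (0.63) and Orc1 (0.61), against 15.7% of all genes, and E2f2 was lower (-0.84 ± 0.14; 18.5% of all genes). Without replicate 2 there were 27 higher, against 22.9% of all genes, led by Dut (0.67), Pola1 (0.54) and Rfc4 (0.53), with E2f2 (-0.82), Dscc1 (-0.43) and Rfc2 (-0.29) lower, against 21.4%. Within the numbered WT libraries 1, 2 and 3, the median difference between C16 and RE was 0.26, 0.57 and 0.13.

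Under DMSO, 0 of 47 genes passed between AE9a and WT (edgeR on 18 libraries, against 26.7% of all 15809 genes in either direction). An unadjusted p under 0.05 was found for 2 of 47, against 6117 of the 15809 genes, and DESeq2 called Prim2 lower. Prim2 was at -0.42 ± 0.15 (adjusted p 0.052), with 35.2, 30.5 and 36.05 CPM in AE9a and 39.3, 54.4 and 39.1 in WT, so that every WT library lay above every AE9a library. The median over the 47 genes was -0.06. Without WT replicate 2, 22 genes were higher in AE9a, against 24.8% of all genes. The largest were Tk1 (0.84 ± 0.08), Uhrf1 (0.60 ± 0.06), Cdc6 (0.58 ± 0.06), Mcm10 (0.52 ± 0.10) and Mcm5 (0.47 ± 0.08). Prim2 (-0.24 ± 0.07) and Tyms (-0.19 ± 0.06) were lower, 2 genes against 25.9%. Tk1, for example, measured 43.8, 37.5 and 41.3 CPM in AE9a and 23.3, 44.8 and 21.5 in WT, so that only the second WT library reached the AE9a values. Each genotype has its own count table, and genotype and a batch of the tables cannot be told apart.

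The change with C16 was more positive in AE9a than in WT for 1 gene, Prim2, by 0.72 ± 0.21 (adjusted p 0.039, edgeR interaction; 4.78% of all genes were higher). Prim2 (chr1:33492889-33708867, minus strand) measured 35.2, 30.5 and 36.05 CPM under DMSO and 49.3, 51.05 and 51.8 under C16 in AE9a, but 39.3, 54.4 and 39.1 and 36.4, 50.5 and 38.4 in WT. It rose in AE9a, and in WT each C16 library was below the DMSO library of its number. Its call was lost without any 1 of the AE9a DMSO or C16 libraries, WT C16 replicate 1 or 3, or WT DMSO replicate 2, with differences of 0.54 to 0.77 and adjusted p of 0.057 to 0.11. The difference was positive for 46 of 47 genes, with a median of 0.56. Of the 47, 25 had an unadjusted p under 0.05, against 4982 of all 15809 genes. Large values that did not pass were those of E2f2 at 0.91 ± 0.57, where the change was negative in WT, Cdc45 at 0.89 ± 0.47, Rrm2 at 0.86 ± 0.43 and Gins2 at 0.84 ± 0.37.

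With the replicate block the change with C16 was more positive in AE9a than in WT for 40 genes, against 19.4% of all genes. E2f2 (0.99), Cdc45 (0.93), Rrm2 (0.90), Gins2 (0.88) and Fen1 (0.80) led them, and Pola1 (0.27), Pold1 (0.34) and Mcm2 (0.37) were the smallest called. Rfc2 was lower (-0.38 ± 0.09; 17.4% of all genes), and Orc1, Orc6, Dscc1, Pold2, Rpa1 and Tyms did not pass. Without WT replicate 2 it was more positive in AE9a for 46 genes, against 28.9% of all genes, led by E2f2 (1.12), Ung (1.06), Dscc1 (1.05), Cdc45 (1.02) and Gins2 (1.01), with Rfc2 lower (-0.31 ± 0.08; 21% of all genes). Leaving out only WT C16 replicate 2 called 45 genes higher, while calls over all genes in either direction rose from 2065 to 6394. A positive difference is not always a larger response in AE9a: without WT replicate 2, E2f2 changed by -1.03 in WT, against 0.03 in AE9a with all AE9a libraries, and Dscc1 by -0.49 against 0.50.

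**Figure D5:**
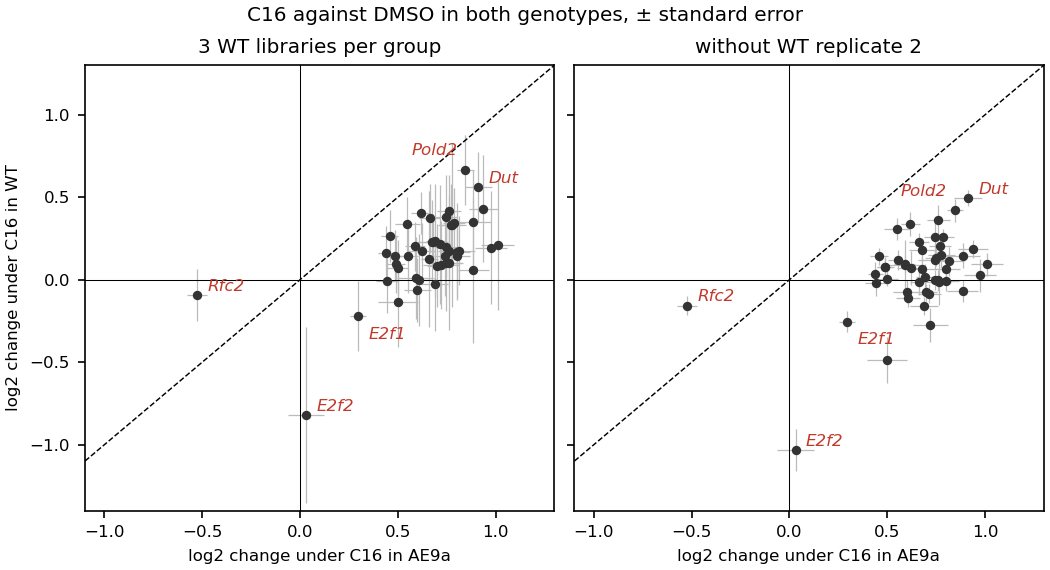
Log2 fold change with C16 against DMSO of the 47 genes in AE9a and in WT (1 point per gene, dashed line at equal change), left with all WT libraries and right without WT replicate 2. Most genes lie on the AE9a side of the line, with AE9a and WT medians of 0.69 and 0.17 on the left and a WT median of 0.07 on the right.

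The difference between genotypes in the response to RE passed for 0 of the 47 genes (edgeR interaction; 0% of all genes). Its difference was negative for 46 of them with a median of -0.27, and DESeq2 called 0. Of the 47, 2 had an unadjusted p under 0.05, against 676 of all 15809 genes. The block called 0 of the 47, with 22 at an unadjusted p under 0.05, against 1512 of all 15809 genes. Without WT replicate 2, the change with RE was more negative in AE9a than in WT for 7 genes, against 0.527% of all genes: Orc6 (-0.50), Tyms (-0.47), Lig1 (-0.45), Pole (-0.44), Cdc6 (-0.41), Mcm6 (-0.39) and Mcm2 (-0.37). In WT without that replicate Orc6 and Tyms were at 0.12 ± 0.07 and 0.11 ± 0.05 with RE, neither of which passed. Orc6 measured 50.5, 44.2 and 43.8 CPM under DMSO and 35.4, 34.2 and 36.9 under RE in AE9a, against 39.04, 52.9 and 40.7 and 43.2, 44.6 and 43.4 in WT.

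The 47 genes covaried closely. Over the 18 libraries, the median correlation of a gene's log2 level with the mean of the other genes was 0.96. The lowest were Rfc2 (-0.79), E2f2 (0.40) and Tyms (0.77). These values describe libraries that share groups and treatments, and carry no test.

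Of other genes of the pathway, 65 were listed and 64 tested. In AE9a, 56 were higher and 4 lower with C16 (median 0.54), where 33.1% of all genes were higher and 33.2% lower. With RE 48 were lower and 1 higher (median -0.33), where 16.8% of all genes were lower and 12.2% higher. All 12 genes that fire origins were higher with C16, led by the cyclins Ccne2 (0.95 ± 0.11), Ccna2 (0.84 ± 0.07) and Ccne1 (0.84 ± 0.08) and by Recql4 (0.82 ± 0.07), and 10 were lower with RE, led by Ticrr (-0.60 ± 0.09). All 9 chromatin genes of replication were higher with C16, such as Hells (1.09 ± 0.08), a remodeller for DNA methylation, and the histone chaperone Nasp (1.01 ± 0.06), and 8 were lower with RE, led by Cdca7 (-0.61 ± 0.06). Of 8 further licensing genes 7 were higher with C16, led by Gmnn (0.65 ± 0.06), the inhibitor of CDT1, and 7 lower with RE, where Gmnn fell by 0.43 ± 0.06. Of 15 polymerase and fork genes 14 were higher with C16, such as Tipin (0.86 ± 0.06), and 11 lower with RE, led by its partner Timeless (-0.73 ± 0.07). Pold4 was lower with C16 (-0.60 ± 0.12).

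The E2F and RB family held genes called in both directions. Of 12 further E2F and RB family genes, 9 were higher with C16, led by Tfdp1 (0.61 ± 0.04), the partner of E2F proteins, and the pocket proteins Rb1 (-0.55 ± 0.06) and Rbl2 (-0.57 ± 0.06) were lower. With RE, 8 of the 12 were lower, led by Tfdp2 (-0.64 ± 0.18). Of 8 further nucleotide genes 5 were higher with C16, led by Shmt1 (0.88 ± 0.07) and Dctpp1 (0.85 ± 0.05), and 4 were lower with RE, led by Shmt1 (-0.51 ± 0.07). Tk2, the mitochondrial thymidine kinase, was lower with C16 (-1.47 ± 0.15) and higher with RE (0.56 ± 0.14), the reverse of Tk1. In WT, 2 of the 64 were higher and 1 lower with C16, where 3.1% of all genes were called in either direction. With the block 10 were higher and 5 lower, against 10.4% and 13.8% of all genes. Without replicate 2 there were 14 higher and 9 lower, against 20.8% and 20.9% of all genes. With RE, 0 passed in WT, where 0.0266% of all genes did in either direction. Without replicate 2 there were 1 higher and 5 lower, against 644 and 575 of all 15198 genes tested.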

How the data were processed

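Total RNA of cKit+ mouse bone marrow cells was sequenced in 18 libraries, 3 for each of 6 groups of genotype and treatment. The authors deposited whole-number counts of fragments per gene, 1 table per genotype. The build was GRCm39, the aligner HISAT2 2.1.0 and the counter featureCounts 2.0.3, per the submitters' processing notes, which also name FastQC 0.11.9, fastp 0.23.2 and DESeq2. The counter is version 1.6.2 per the file headers, so the version is uncertain. It was set to primary alignments of read pairs in exons, summed by gene and ignoring strand, also per the file headers. Genes with overlapping or near-identical copies are uncertain.

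The counts were tested with edgeR 4.0.16 (limma 3.58.1, R 4.3.3): TMM scaling, filterByExpr, quasi-likelihood F test, and Benjamini-Hochberg adjustment over all genes tested, at 0.05. Each genotype's 9 libraries were fitted together for the treatment comparisons. Contrasts between genotypes used all 18. All 47 members passed the filter in every fit, and 14704, 15046 and 15809 genes were tested in AE9a, in WT and in both. SE is the log2 fold change divided by the square root of F. Members and lists were chosen with earlier results of these data known. Genes with values in every library were 14 set by hand, with, in each comparison, the 5 largest and 3 smallest changes called; members not called or against the majority were named, as were up to 4 genes of each pathway list.

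Alternatives were RLE and upper-quartile scaling, no filter, DESeq2 1.42.0, a replicate block, each library left out, WT without replicate 2, and 1 fit of all libraries. Same-numbered libraries deviated together, as a correlation of deviations from group means, in every WT comparison (0.53 to 0.84) and in AE9a between DMSO and RE (0.25 to 0.34), but not in every pair between AE9a DMSO and C16 (0.06 to 0.25). The pairing comes from these correlations, not the labels, and in WT it rests largely on replicate 2. The scripts were tested on simulated data with the spread of the fitted libraries. Of genes changed 2-fold, 95% were called for C16 against DMSO in AE9a and 93% for RE. In WT these were 0% and 5%, and 45% were called for the difference in the C16 response. Of genes changed 1.5-fold, 80% and 77% were called in AE9a, 0% and 0% in WT, and 10% for the difference in the C16 response. The WT comparisons thus had little power to call such changes. Floors of 3 fragments cover counting error only, while SE also takes in the spread between libraries as fitted. No GRCm39 genome was used.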

Additional observations from a re-analysis of the deposited data

Results flagged for a closer look

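The fold change of Prim2, the large primase subunit, with C16 differed between AE9a and WT by a log2 difference of 0.72 ± 0.21 (edgeR interaction; adjusted p 0.039). It was 1 gene of 47 in this fit, where 4.78% of all genes were called higher. With the replicate block 40 of the 47 were called higher, against 19.4% of all genes. Without WT replicate 2 in all groups 46 were, against 28.9%. For Prim2 in AE9a all 3 C16 libraries were above all DMSO libraries, and in WT the C16 library was below the DMSO library of the same number in 3 of 3. The call was kept with the block (0.72) and without WT replicate 2 in all groups (0.73), and lost without the filter on low counts (0.66; adjusted p 0.068, edgeR) and without any 1 of the AE9a DMSO or C16 libraries, WT C16 replicate 1 or 3, or WT DMSO replicate 2.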

How the results depend on the processing

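In AE9a, 42 to 45 members were higher with C16 than with DMSO over all alternatives and 45 to 46 higher than with RE. Counts that moved were these. With RE in AE9a, members called higher numbered 0 without the filter and in the fit of all 18 libraries, and 0 to 1 with a library left out. Lower were 5 in the fit of all 18 and 43 to 45 with a library left out. In WT with C16, 4 were higher with the replicate block, 1 with DESeq2, 9 without WT replicate 2 and 3 in the fit of all 18. Lower were 1 with the block and 4 without replicate 2. In WT with RE, 1 was lower without replicate 2. For C16 against RE in WT, 1 was higher without the filter, 29 with the block, 5 with DESeq2, 27 without replicate 2, 9 in the fit of all 18 and 0 to 2 with a library left out. Lower were 1 with the block and 3 without replicate 2. Between genotypes, 22 were higher and 2 lower without replicate 2, and 1 was lower with upper-quartile scaling and with DESeq2. For the C16 response, 3 were higher with upper-quartile scaling, 0 without the filter, 40 with the block, 4 with DESeq2 and 46 without replicate 2. With a library left out 0 to 45 were higher, where calls over all genes in either direction numbered 1084 to 6394. Of the members, 1 was lower with the block and 1 without replicate 2. For the RE response, 7 were lower without replicate 2. The paired fit with the block moved no count of members in AE9a, where a pairing between DMSO and C16 was not shown. The cause of the moves was not tested, except that left-out libraries shrink the groups. E2f2 with C16 in AE9a ranged from -0.0716 (without AE9a DMSO replicate 2) to 0.115 with a library left out, and reversed also without AE9a C16 replicate 1 (-0.0141). RLE and upper-quartile scaling turned no direction of the C16 median (0.68 and 0.70) or the RE median (-0.48 and -0.46) in AE9a.

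The spread in WT (biological coefficient of variation 0.329, against 0.103 in AE9a) limits those comparisons, and a missing call there does not show that a gene did not change.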

Other observations

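Lat2, a gene on the opposite strand 1774 bases from Rfc2 (chr5:134628957-134648637, GRCm39), was looked up after the values of Rfc2 were seen. In AE9a it measured 186, 238 and 200 CPM under DMSO, 63.8, 66.7 and 64.6 under C16 and 246, 274 and 252 under RE. Its changes were -1.65 ± 0.08 with C16 and 0.28 ± 0.08 with RE, in the direction of those of Rfc2 and larger. Over the 18 libraries its log2 level correlated with that of Rfc2 at 0.70, given as a description. Counting ignored strand, no exon base of Rfc2 is shared with a gene, and the part of Lat2 in the values of Rfc2 was not tested.

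WT C16 replicate 2 was closer to the AE9a C16 libraries than to the other WT C16 libraries over all genes (root mean square log2 distance 0.70 to 0.74, against 1.11 and 1.16). Over the replication genes alone the distances were 0.11 to 0.15, against 0.77 and 0.82. Runx1t1 in WT was at most 0.38 CPM in any library.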
